A study of Homo sapiens with 34 samples.

Results

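The genes described here are 9 neuroendocrine markers, CHGA, CHGB, SCG2, SCG3, SYP, NTS, PCSK1, ENO2 and INSM1. They were taken by symbol from a table of read counts for 26336 genes, and each symbol has 1 row. The table covers 34 libraries of poly(A) RNA in 17 groups, from 4 established human prostate cell lines. RWPE is labelled as non-tumorigenic prostate epithelium, LNCaP as a lymph node metastasis (a model of early adenocarcinoma in the study's design), and VCaP and MDAPCa2a as bone metastases. Cells grew on culture plastic or on a coating of amorphous calcium phosphate (ACP), a mineral form related to bone, and the study asked how surface and androgen change expression. Control medium was each line's usual medium, and stripped medium held serum treated with charcoal and dextran, which takes out steroid hormones. Androgen medium was stripped medium with hormone added back, labelled 100 mM and named DHT in some labels and testosterone in others. Plastic control libraries are labelled as continuous culture and the other groups as day 4, although the protocol has plastic cultures grown for 4 days as well. LNCaP and VCaP have 5 groups: plastic control, plastic stripped, ACP control, ACP stripped and ACP androgen. MDAPCa2a has no ACP control group here, and its plastic carried a protein coating that its ACP surface did not. RWPE has plastic control, ACP control and ACP androgen, with no stripped group, and its usual medium is serum-free with bovine pituitary extract. Groups hold 2 libraries, except RWPE ACP androgen with 3 and VCaP plastic stripped with 1. Nothing says that replicates are separate cultures, so p-values measure the spread between these libraries, which may be technical.

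Neuroendocrine cells make peptide hormones and store them in dense-core vesicles, which release their content when the cell is stimulated. Chromogranins (CHGA, CHGB) and secretogranins (SCG2, SCG3) are acidic proteins that help form these vesicles and load them. SYP (synaptophysin) is a membrane protein of small synaptic-like vesicles. NTS is the precursor of the peptide neurotensin, and PCSK1 is a prohormone convertase that cuts peptide precursors. ENO2 is the neuronal enolase, a glycolytic enzyme, and INSM1 is a zinc finger transcription factor of neuroendocrine cells. In the prostate such cells are rare, and prostate cancer under androgen withdrawal is known to gain features of them in some patients. The comparisons below address whether loss of androgen was accompanied by higher levels of these genes.

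Promoters are shown for 3 genes that rose in VCaP without androgen and for PCSK1, which rose in RWPE, the members that rose within a line and have an entry in the promoter table. The RefSeq promoter table (GRCh38.p14) matched 6 of the 9 symbols, and CHGB, SCG2 and INSM1 are absent from it. Each sequence is the 250 bases before the annotated start, 5′ to 3′ on the strand of the gene, with matches to a searched motif in capitals. CHGA lies at chr14:92922900-92923149 on the plus strand, ENO2 at chr12:6914330-6914579 on the plus strand, NTS at chr12:85874045-85874294 on the plus strand, and PCSK1 at chr5:96433249-96433498 on the minus strand.
CHGA: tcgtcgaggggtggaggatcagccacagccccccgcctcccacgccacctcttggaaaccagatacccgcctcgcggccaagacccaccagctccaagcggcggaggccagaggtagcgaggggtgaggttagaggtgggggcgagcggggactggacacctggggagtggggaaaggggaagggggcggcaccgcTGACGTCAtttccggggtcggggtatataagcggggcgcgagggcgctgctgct
ENO2: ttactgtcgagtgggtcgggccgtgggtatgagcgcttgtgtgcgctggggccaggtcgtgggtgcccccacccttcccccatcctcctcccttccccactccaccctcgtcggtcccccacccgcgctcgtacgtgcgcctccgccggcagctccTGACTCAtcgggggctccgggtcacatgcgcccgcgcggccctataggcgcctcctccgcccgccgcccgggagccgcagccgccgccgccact
NTS: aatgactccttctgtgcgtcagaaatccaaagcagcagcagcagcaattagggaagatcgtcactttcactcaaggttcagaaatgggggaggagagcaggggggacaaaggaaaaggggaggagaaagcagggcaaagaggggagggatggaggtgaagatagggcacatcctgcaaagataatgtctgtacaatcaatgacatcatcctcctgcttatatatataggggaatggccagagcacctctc
PCSK1: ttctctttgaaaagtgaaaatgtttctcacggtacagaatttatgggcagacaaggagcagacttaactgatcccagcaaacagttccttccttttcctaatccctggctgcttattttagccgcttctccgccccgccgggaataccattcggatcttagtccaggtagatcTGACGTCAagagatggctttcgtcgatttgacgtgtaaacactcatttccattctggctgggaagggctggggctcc

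These 250 bases were searched on both strands for TGACGTCA (the cyclic AMP response element), TGANTCA (the AP-1 site), AGAACA (part of the element bound by androgen and glucocorticoid receptors) and TATAAA (the TATA box), none of which overlapped another in the members. TGACGTCA was found in CHGA at positions -54 to -47 from the start and in PCSK1 at -77 to -70, and 1.65% of 35116 promoter windows of this length hold it. ENO2 has TGACTCA at -94 to -88, a form of TGANTCA, which 6.57% of windows hold. The NTS window holds no match, as do those of SYP and SCG3. AGAACA occurs in 12.4% of all windows and in none of the 7 windows of the members. TATAAA occurs in 10.7% of windows, and among the members in an alternative PCSK1 start at -28 to -23. A match describes letters and is no measured binding.

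Levels are given as CPM, a gene's reads divided by its library's total in M (TMM-scaled across the 34 libraries, total counts from 15.4 M to 44.8 M). The labels of RWPE and VCaP were checked against markers, which do not tell LNCaP from MDAPCa2a. The summed level of the basal keratins KRT5 and KRT14 with TP63 was 3349 to 15698 CPM in RWPE and at most 37.2 CPM in the other lines. ERG, the fusion partner that marks VCaP, stood at 126 to 882 CPM in VCaP and at most 2.32 CPM elsewhere. Where the text says that a gene rose or fell, edgeR's quasi-likelihood test gave a Benjamini-Hochberg adjusted p below 0.05 over all genes tested. Changes are log2 fold changes ± SE.

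VCaP was the line that expressed the granin genes, SYP and INSM1. CHGA ran from 41.1 to 697 CPM over the 9 VCaP libraries (median 116) and did not exceed 1.13 CPM in any of the 25 libraries of the other lines. CHGB ran from 23.3 to 163 CPM in VCaP (median 62.2) against at most 1.75 CPM, in an RWPE library. SCG3 ran from 47.7 to 88.1 CPM against at most 0.530 CPM in LNCaP, and SCG2 from 4.93 to 48.8 CPM against at most 0.294 CPM in RWPE. INSM1 stood between 16.6 and 61.0 CPM in VCaP, between 0.254 and 1.06 CPM in MDAPCa2a, and at most at 0.163 CPM in LNCaP and 0.0759 CPM in RWPE. For these 5 genes no VCaP library overlapped a library of another line. The share of all genes that do so is not given here. In ACP androgen 51.4% to 67.4% of all genes tested were called between VCaP and another line. SYP showed a graded order, with 59.2 to 87.0 CPM in VCaP, 2.09 to 4.86 CPM in LNCaP, 1.34 to 2.18 CPM in MDAPCa2a and 0.204 to 0.940 CPM in RWPE. LNCaP and MDAPCa2a overlapped in SYP by a narrow margin, and the other neighbours in that order did not overlap.

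**Figure D1:**
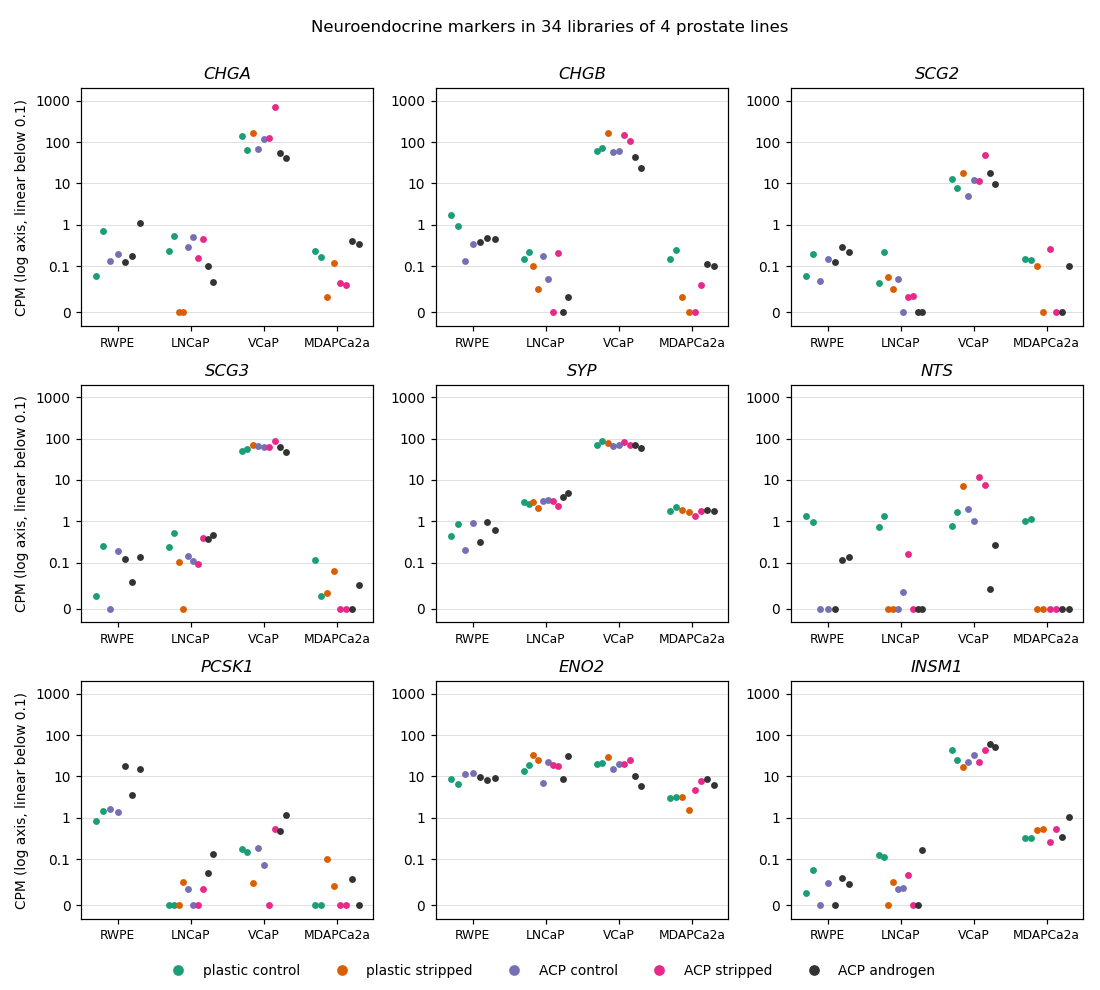
Level of each of the 9 genes in each of the 34 libraries, by cell line (horizontal axis) and in CPM (vertical axis, logarithmic and linear below 0.1), with each point a library and its colour the surface and medium. CHGA, CHGB, SCG2, SCG3, SYP and INSM1 sit higher in the 9 VCaP libraries than in any other library, ENO2 is spread over all lines, and PCSK1 is highest in RWPE.

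ENO2, NTS and PCSK1 did not follow that pattern. ENO2 was found in all 4 lines, at 6.80 to 33.2 CPM in LNCaP (median 19.1), 6.0 to 29 CPM in VCaP (median 19.8), 6.57 to 12.3 CPM in RWPE (median 8.98) and 1.53 to 8.42 CPM in MDAPCa2a (median 3.88). The ranges of all 4 lines overlapped each other in ENO2. PCSK1 was highest in RWPE, at 0.849 to 17.5 CPM (median 1.60), against 0 to 1.14 CPM in VCaP and at most 0.131 CPM in LNCaP and 0.0996 CPM in MDAPCa2a. NTS reached 11.8 CPM in VCaP and stayed at or below 1.35 CPM in the other lines, with a median of 0 CPM in LNCaP and in MDAPCa2a.

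ACP androgen is the condition that all 4 lines share, and there the lines were tested in a fit of all 34 libraries. VCaP against LNCaP gave 8 higher members and 1 lower, ENO2 (-1.31 ± 0.46, adjusted p = 0.0194), where 56% of all genes tested were called. That ENO2 difference was -0.080 without LNCaP ACP androgen replicate 2, and it also missed the threshold without VCaP ACP androgen replicate 2. The NTS call was lost without 3 of the 4 libraries (all but VCaP replicate 1) and that of PCSK1 without LNCaP replicate 1 or VCaP replicate 2. The size was 9.07 ± 0.96 for CHGA and 3.90 ± 0.32 for SYP. VCaP against MDAPCa2a gave 7 higher members, with 51.4% of all genes called (26.9% as higher), and ENO2 (0.14 ± 0.47) and NTS did not pass. PCSK1 was not called there without replicate 2 of either line. VCaP against RWPE gave 6 higher members and 1 lower, PCSK1 (-3.91 ± 0.75), with 67.4% of all genes called. LNCaP against RWPE gave 3 higher (SYP, SCG3, ENO2) and 3 lower (CHGB, SCG2, PCSK1), with 66.9% called. The ENO2 difference of 1.16 ± 0.41 in that comparison was -0.066 without LNCaP ACP androgen replicate 2, and 3 members then passed. The SCG3 call there was lost without each of the 5 libraries, and that of SCG2 without either LNCaP library. MDAPCa2a against RWPE gave SYP and INSM1 higher and CHGB and PCSK1 lower, with 64% called, and the CHGB call was lost without each of the 5 libraries. MDAPCa2a against LNCaP gave INSM1 higher and SYP, ENO2 and SCG3 lower, with 45.3% called. Without MDAPCa2a ACP androgen replicate 2 that last count was 2, with INSM1 and ENO2 lost. ENO2 went from -1.45 to -0.22 and was not called without LNCaP ACP androgen replicate 2, and SCG3 was not called without MDAPCa2a ACP androgen replicate 1. These shares show how far the lines differ at large, and media differed between lines too.

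Within VCaP the members can be ordered per kilobase of exon (CPM/kb), as medians of the 5 group means. CHGA stood at 33.1 CPM/kb, SCG3 at 19.8, CHGB at 14.9, SYP at 14.8, INSM1 at 11.6, SCG2 at 4.98, ENO2 at 4.83, NTS at 0.983 and PCSK1 at 0.0301. The ranges of the group means overlapped for neighbours such as CHGA (15.3 to 132 CPM/kb) and SCG3 (16 to 22.5 CPM/kb), as did those of SCG2 (3.09 to 11.1 CPM/kb) and NTS (0.0984 to 6.17 CPM/kb). SCG3 and SYP did not overlap SCG2 or ENO2 (1.89 to 6.78 CPM/kb), and PCSK1 exceeded the lowest group mean of NTS alone (0.152 CPM/kb at most). SYP (12.4 to 15.4 CPM/kb) and SCG3 varied least over the 5 groups.

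Without androgen on ACP, 4 of the 9 members rose in VCaP and none fell: NTS, CHGA, CHGB and ENO2. Stripped medium was compared with androgen medium there, and 17.5% of the 15614 genes tested were called in either direction, 8.8% as higher. These were 2727 genes, and 891 without stripped replicate 1, 1334 without androgen replicate 1 and 766 without androgen replicate 2. The median change of the 9 members was 1.16 against 0.026 over all genes, and that median is the value of SCG2, which turns to -0.22 without stripped replicate 2. In bulk RNA, more cells of a type and more RNA per cell cannot be told apart. The androgen-responsive checks fell in the same comparison, with log2 changes of -4.77 for KLK3 (prostate-specific antigen), -2.91 for TMPRSS2 and -3.31 for FKBP5.

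CHGA read 54.0 and 41.1 CPM in the ACP androgen libraries and 125 and 697 CPM in the ACP stripped libraries. The groups did not overlap, and stripped replicate 2 was the highest of all 9 VCaP libraries. The change was 3.11 ± 0.68 (adjusted p = 0.0146), and it ranged from 1.39 to 3.83 without single libraries. It did not pass without stripped replicate 2, where it was lowest, without androgen replicate 1 or without androgen replicate 2. CHGB, the second chromogranin of the same vesicles, read 44.9 and 23.3 CPM with androgen and 149 and 105 CPM without. Its change was 1.90 ± 0.30 (adjusted p = 0.00412) and passed without any of the 4 libraries in turn, at 1.5 to 2.42.

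NTS, the neurotensin precursor, was at 1 and 6 reads with androgen (0.0433 and 0.263 CPM) and at 242 and 180 reads without (11.8 and 7.38 CPM). The libraries of the groups were far apart, and the change of 5.93 ± 0.75 (adjusted p = 0.00177) was the largest of the 9, at 5.14 to 7.65 and past the test without each library in turn. ENO2 read 10.2 and 6.0 CPM with androgen and 19.8 and 24.5 CPM without. Its change of 1.45 ± 0.30 (adjusted p = 0.0113) became 1.12 and did not pass without androgen replicate 2.

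The other secretory vesicle genes did not pass the test in this comparison. SCG2 read 17.5 and 9.55 CPM with androgen and 11.6 and 48.8 CPM without (1.16 ± 0.62, adjusted p = 0.214), and its direction turned to -0.22 without stripped replicate 2, the library that was also highest in CHGA. SCG3 read 62.9 and 47.7 CPM with androgen and 61.1 and 88.1 CPM without (0.43 ± 0.22, adjusted p = 0.201). SYP read 69.8 and 59.2 CPM with androgen and 83.8 and 70.7 CPM without (0.26 ± 0.19, adjusted p = 0.362), with only a small gap between the groups. INSM1, the transcription factor, read 61.0 and 50.5 CPM with androgen and 22.0 and 43.6 CPM without, which is lower in both stripped libraries (-0.76 ± 0.36, adjusted p = 0.159). PCSK1, at 0.476 and 1.14 CPM with androgen and 0 and 0.533 CPM without, gave -1.53 ± 1.07 (adjusted p = 0.337). Without stripped replicate 2, INSM1 and PCSK1 passed as lower and CHGA did not pass, and 5 members were then called.

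**Figure D2:**
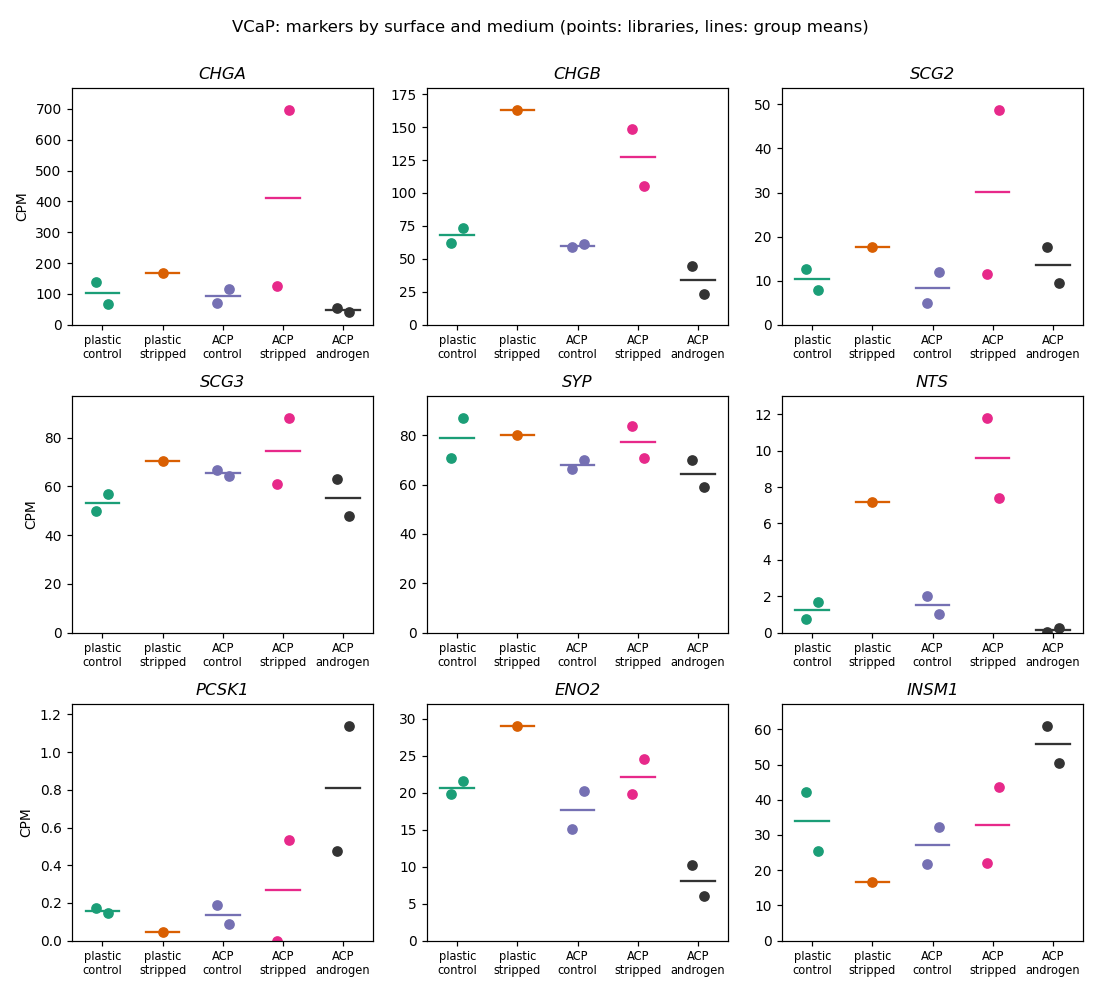
Level of each gene in the 9 VCaP libraries (points, CPM on a linear axis from 0) by surface and medium, with lines at group means. NTS, CHGB and ENO2 are lowest with androgen added, CHGA is also lowest there with a single high stripped library at 697 CPM, and INSM1 is highest with androgen.

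The same VCaP stripped libraries were compared with control medium. On ACP, where 0.82% of all genes were called (128 genes, and 0 to 309 without single libraries), edgeR called 0 of the 9 members, with 4 at an unadjusted p below 0.05 (CHGA, CHGB, SCG2, NTS) and 2 called by DESeq2 (CHGB, NTS). That unadjusted p was reached by 2585 of all 15614 genes tested. NTS read 2.02 and 1.04 CPM in ACP control (2.66 ± 0.59, adjusted p = 0.0645), CHGB 58.6 and 60.9 CPM (1.11 ± 0.29, adjusted p = 0.104) and CHGA 69.6 and 116 CPM (2.16 ± 0.66, adjusted p = 0.14). Each of these control values lay below both stripped libraries. SCG2 read 4.93 and 11.9 CPM in ACP control, and its lower stripped library stood within that range (1.87 ± 0.64, adjusted p = 0.183). ENO2 read 15.1 and 20.2 CPM in ACP control, overlapping the stripped libraries (0.35 ± 0.29), and INSM1 read 21.8 and 32.4 CPM, overlapping them too (0.30 ± 0.36). INSM1 was at -0.28 and SCG3, at 0.20 ± 0.22, was at -0.083 without ACP stripped replicate 2. The androgen and control comparisons share the stripped libraries, so they are no separate evidence for each other.

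On plastic the stripped group is 1 library, with a spread taken from the other VCaP groups. There CHGB was at 163 CPM against 62.2 and 73.3 CPM in plastic control (1.31 ± 0.34, adjusted p = 0.0829), and NTS at 7.20 CPM against 0.758 and 1.71 CPM (2.58 ± 0.65, adjusted p = 0.077). Both stood above each control library without passing the test. CHGA was at 169 CPM against 139 and 65.7 CPM (0.76 ± 0.75), ENO2 at 29 CPM against 19.8 and 21.5 CPM (0.53 ± 0.35), and SYP at 80.1 CPM, between its control libraries at 70.9 and 87.0 CPM. INSM1 was lower, at 16.6 CPM against 42.3 and 25.5 CPM (-0.99 ± 0.46, adjusted p = 0.264). By edgeR 0 of 9 members passed, and 0.89% of all genes were called. An unadjusted p below 0.05 was reached by 2 members (CHGB, NTS) and by 3102 of all 15614 genes tested. DESeq2 called the same 2 members, and the number of all genes it called is given below. Stripped medium and the continuous culture label change together here and cannot be told apart.

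**Figure D3:**
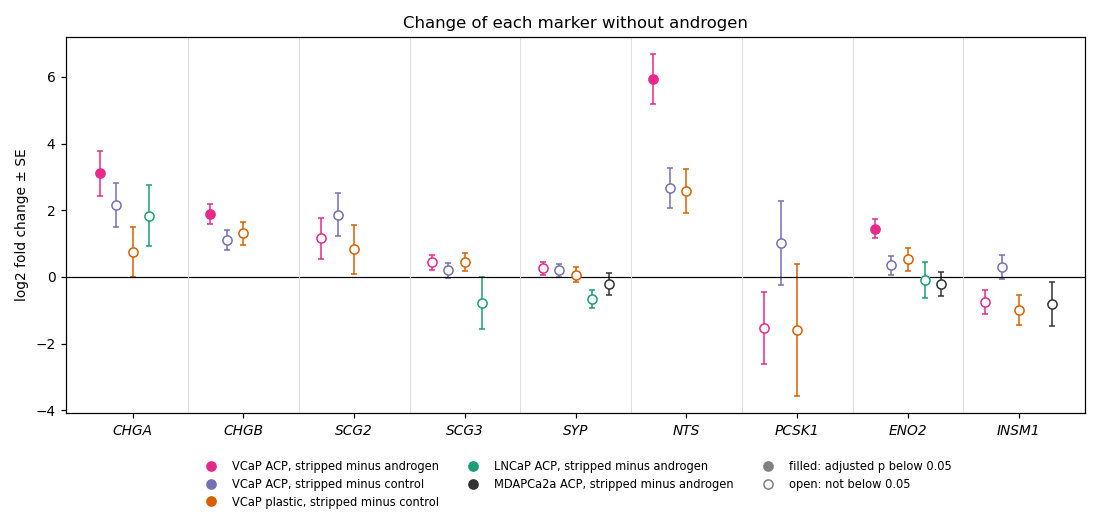
Log2 fold change (vertical axis, ± SE) of each gene for 5 comparisons of stripped medium with androgen or control medium, coloured by line and surface, filled where the adjusted p is below 0.05. The filled points are CHGA, CHGB, NTS and ENO2 in VCaP on ACP against androgen; genes not tested in a line, or with a group at 0 reads, are not drawn.

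In LNCaP the same withdrawal moved the androgen targets and no member passed. KLK3 fell (-1.01), as did TMPRSS2 (-2.27) and FKBP5 (-1.94), for ACP stripped against ACP androgen, where 7.73% of 14656 genes were called (1133 genes, and 201 to 1771 without single libraries). Of the 9 members, 5 passed the count filter, NTS through its plastic control reads alone. Of these edgeR called 0, with SYP at an unadjusted p below 0.05 and 0 called by DESeq2. That unadjusted p was reached by 3518 of the 14656 genes. SYP read 3.77 and 4.86 CPM with androgen and 3.04 and 2.31 CPM without, lower in both stripped libraries (-0.67 ± 0.27, adjusted p = 0.154). ENO2, the member with most reads in LNCaP, read 8.57 and 31.5 CPM with androgen and 19.1 and 18.1 CPM without. Its androgen libraries lie on either side of the stripped libraries, the change was -0.088 ± 0.54, and it was 1.11 without androgen replicate 2. CHGA was at 0.104 and 0.0653 CPM with androgen and 0.162 and 0.455 CPM without (1.83 ± 0.91, adjusted p = 0.255). SCG3 gave -0.79 ± 0.79. NTS was at 0 reads with androgen and 5 reads without, all in stripped replicate 1, which is too few to give a size.

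LNCaP stripped libraries were also compared with control medium. On ACP, with 5.37% of genes called, edgeR called 0 of the 5 tested members, with 0 at an unadjusted p below 0.05 and 0 called by DESeq2. These 5 again include NTS, with 5 reads in ACP stripped and 1 in ACP control. ENO2 gave 0.34 ± 0.55 there, and -0.28 without ACP control replicate 1, since its control libraries read 6.80 and 22.4 CPM. On plastic, with 9.45% of genes called (4.84% as lower), 2 members fell and none rose. CHGA had 36 reads in plastic control and 0 in plastic stripped, at least 7.59-fold lower (adjusted p = 0.0263), and NTS had 95 reads against 0, at least 20.0-fold lower (adjusted p = 0.0152). Both genes lie near the detection limit in LNCaP. NTS passed the count filter in LNCaP through its plastic control reads alone, so against that group it could be called only as lower. ERG, the VCaP marker, was at 1.44 to 2.32 CPM in LNCaP plastic control and at 0.0510 to 0.0513 CPM in plastic stripped, and its part in the CHGA difference was not tested. The CHGA call was lost without each of the 4 libraries in turn, and the NTS call without 3 of the 4, both plastic control libraries and stripped replicate 1. ENO2 read 13.7 and 19.0 CPM in plastic control and 33.2 and 25.1 CPM in plastic stripped, with no overlap (0.88 ± 0.54, adjusted p = 0.352). SYP gave -0.077 ± 0.27, and 0.081 without stripped replicate 2.

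MDAPCa2a on ACP showed no called gene at all between stripped and androgen medium, 0% of 13626 tested by edgeR, with 236 at an unadjusted p below 0.05 and 3 called by DESeq2. Of the 9 members 4 passed the count filter, NTS through its plastic control reads alone, so NTS could not be called here. Of these members 0 were called by edgeR, 0 at an unadjusted p below 0.05 and 0 by DESeq2. ENO2 read 8.42 and 6.26 CPM with androgen and 4.58 and 7.72 CPM without, overlapping (-0.22 ± 0.36, and 0.074 without stripped replicate 1). SYP read 1.89 and 1.77 CPM with androgen and 1.34 and 1.74 CPM without (-0.21 ± 0.32), and INSM1 gave -0.81 ± 0.65. NTS had 0 reads in all 4 libraries. CHGA had 14 reads with androgen and 2 without, 6.19-fold higher with androgen (exact 95% counting interval 1.42 to 56.1, from counting error only). ERG, the VCaP marker, was at 1.26 to 1.55 CPM with androgen and 0 to 0.116 CPM without. Its part in this CHGA difference was not tested. FKBP5 stood at 365 and 290 CPM with androgen and 380 and 320 CPM without (0.14 ± 0.20), so the androgen-responsive check did not pass in this line.

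On plastic, MDAPCa2a stripped against control gave 1 lower member of 4 tested, NTS, with 1.58% of genes called (0.697% as lower), which was 215 genes and 0 to 7 without single libraries. NTS had 76 reads in plastic control and 0 in plastic stripped, at least 19.9-fold lower (adjusted p = 0.0397), and the call was lost without each of the 4 libraries. It passed the count filter through these plastic control reads alone, so it could be called only as lower here. ENO2 read 3.06 and 3.17 CPM in plastic control and 3.12 and 1.53 CPM in plastic stripped (-0.38 ± 0.37, and 0.010 without stripped replicate 2). SYP gave -0.15 ± 0.29, with 1.79 and 2.18 CPM against 1.83 and 1.66 CPM. CHGB, not tested at its read number, had 14 reads against 1, 11.0-fold lower in stripped medium (exact 95% counting interval 1.67 to 465). It was at 0.149 and 0.248 CPM in plastic control and at most at 0.115 CPM in the other 6 libraries of this line. The sum of 8 liver genes was 7.01 to 12.3 CPM in plastic control and 0.0404 to 0.199 CPM in plastic stripped, and its part in these differences was not tested.

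The rise in VCaP was tested against the other lines directly. In the mean effect of androgen loss over LNCaP, VCaP and MDAPCa2a on ACP, edgeR called 0 of 9 members, with 0 at an unadjusted p below 0.05 and 1 called by DESeq2 (NTS), against 9.06% of all genes called. The effect in VCaP minus that in LNCaP gave 0 of 9 (10.9% of genes called), with ENO2 (1.56 ± 0.65, adjusted p = 0.127) and SYP (0.95 ± 0.42, adjusted p = 0.159) at an unadjusted p below 0.05 and 1 called by DESeq2 (SYP). The effect in VCaP minus that in MDAPCa2a gave 0 of 9 (7.86% called), with CHGA (5.65 ± 1.92, adjusted p = 0.0719), ENO2 (1.70 ± 0.67, adjusted p = 0.122) and CHGB (3.58 ± 1.64, adjusted p = 0.189) at an unadjusted p below 0.05 and 1 called by DESeq2 (CHGA). For MDAPCa2a minus LNCaP the counts were 0 of 9 by edgeR (1.12% called), 0 at an unadjusted p below 0.05 and 0 by DESeq2. Of all 17323 genes tested, 3986 had an unadjusted p below 0.05 in the mean effect and 4334 in VCaP minus LNCaP. The number was 3961 in VCaP minus MDAPCa2a and 2050 in MDAPCa2a minus LNCaP. The difference of CHGA between VCaP and LNCaP was 1.31 ± 1.95, and -0.41 without VCaP ACP stripped replicate 2. A larger response of VCaP than of another line was thus not shown for any of the 9 genes by edgeR with all libraries. For NTS edgeR could give no call where MDAPCa2a enters, since its ACP groups had 0 NTS reads. The SE of NTS was 9769 in the mean, 8746 in MDAPCa2a minus LNCaP and 18461 in VCaP minus MDAPCa2a. SCG2 had 0 reads in LNCaP ACP androgen and SCG3 had 0 in MDAPCa2a ACP stripped, which limits their tests too. ENO2 passed in the mean effect without LNCaP ACP androgen replicate 2 and in VCaP minus LNCaP without LNCaP ACP androgen replicate 1, and CHGA passed in VCaP minus MDAPCa2a without VCaP ACP stripped replicate 1.

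Genes related to the members were read from 6 lists: neuroendocrine fate regulators, prohormone processing, synaptic vesicles, peptide hormones, neurotensin receptors and other enolases. The last holds the ubiquitous ENO1, so shares over the 6 lists are not those of neuroendocrine genes alone. In VCaP on ACP without androgen, 49 genes of these lists were tested and 11 were called, ENO1 among them, 22.4% against 17.5% of all genes. Of 12 regulators of neuroendocrine fate tested, 1 rose and none fell: PEG10, an imprinted gene of retrotransposon origin, read 106 and 176 CPM with androgen and 585 and 695 CPM without (2.18 ± 0.49, adjusted p = 0.0165). That call was lost without each of the 4 libraries, and PEG10 in ACP control was at 1066 and 908 CPM, above the stripped libraries. The median change of these 12 was 1.03.

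Of 12 genes of prohormone processing and dense-core vesicles tested in VCaP, 2 rose and 1 fell, with a median of 0.55. PAM, which amidates peptide ends, gave the largest rise (1.35 ± 0.39, adjusted p = 0.0407), lost without each of the 4 libraries. SCGN (secretagogin, a calcium-binding protein of neuroendocrine cells) read 109 and 133 CPM with androgen and 306 and 308 CPM without (1.34 ± 0.21, adjusted p = 0.00407). SCGN also rose against ACP control, at 159 and 121 CPM (1.15 ± 0.21, adjusted p = 0.041), the call of 1 of these 12 genes in that comparison. CPE, the carboxypeptidase that trims peptide precursors, fell from 266 and 194 CPM to 101 and 124 CPM (-1.03 ± 0.23, adjusted p = 0.015), which did not pass without stripped replicate 1 or without androgen replicate 1.

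Of 14 genes of synaptic vesicles and exocytosis tested in VCaP, 4 rose and 1 fell, with a median of 0.28. CPLX2, a complexin that binds the fusion machinery, rose most, from 32.6 and 21.0 CPM to 159 and 175 CPM (2.64 ± 0.45, adjusted p = 0.00578), and missed the threshold without androgen replicate 2. The other three were SYT4, STX1A and VAMP2, named after their values were seen, at 1.31, 1.28 and 1.26. These 3 calls were each lost without stripped replicate 1 or androgen replicate 2, and the 5 calls of the list fell to as few as 1. Of 5 peptide hormone genes tested 1 fell, NPY, from 1331 and 881 CPM to 273 and 428 CPM (-1.65 ± 0.44, adjusted p = 0.0313), which did not pass when any 1 of the 4 libraries was left out. Of 3 neurotensin receptor genes edgeR called 0, with 1 at an unadjusted p below 0.05, which 5386 of all 15614 genes tested reached. Among the other enolases, the ubiquitous ENO1 fell (-1.05 ± 0.21, adjusted p = 0.0105) while ENO2 rose, and its call was lost without androgen replicate 2.

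In LNCaP 5 of the 33 genes tested on these lists were called, 15.2% against 7.73% of all genes. RCOR2, a corepressor, rose from 0.795 and 1.44 CPM to 3.65 and 3.33 CPM (1.66 ± 0.34, adjusted p = 0.0149), and ONECUT2, a homeodomain factor, fell by 0.94 on the log2 scale, both of 7 fate regulators tested. VGF, a neuroendocrine peptide precursor, fell from 14.6 and 6.37 CPM to 3.17 and 2.24 CPM (-1.94 ± 0.40, adjusted p = 0.016), and CPE fell by 1.12, both of 8 processing genes. UNC13A, a vesicle priming factor, fell by 1.94 of 10 synaptic genes. The RCOR2, ONECUT2, VGF and UNC13A calls were each lost without either stripped library or androgen replicate 1, and that of CPE without stripped replicate 2. In MDAPCa2a edgeR called 0 of 28 tested genes, with 2 at an unadjusted p below 0.05. Of 20 genes induced by androgen, 15 fell in LNCaP and 14 in VCaP (8 without VCaP ACP stripped replicate 1) with none rising, and in MDAPCa2a edgeR called 0, with 0 at an unadjusted p below 0.05.

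Markers of other cell types moved with the VCaP comparison. The sum of 8 liver genes was 24.4 to 89.9 CPM with androgen and 278 to 328 CPM without, carried by ALB (15.3 and 64.8 CPM against 267 and 322 CPM), while FGG had 0 reads in all 4 libraries. The sum of 6 fibroblast genes was 7.75 to 8.63 CPM with androgen and 41.5 to 163 CPM without, carried by LUM. LUM read 1.25 and 4.12 CPM with androgen and 36.7 and 153 CPM without, highest in the stripped library that was also highest in CHGA and SCG2. The sum of 5 islet genes was 20.3 to 36.8 CPM with androgen and 53.8 to 58.7 CPM without, with INS, IAPP and PPY at 0 reads in every VCaP library. The sum of 4 luminal genes was 7425 to 11832 CPM with androgen and 4144 to 4443 CPM without. The part of these transcripts in the marker results was not tested. Of genes that define other neuroendocrine tissues, TH had 0 reads in VCaP and all 6 adrenal medulla genes stayed under 1 CPM, as did all 6 pituitary genes, with PRL, GH1, FSHB and TSHB at 0 reads. The brain list summed to 66.3 to 105 CPM in VCaP with MOG and GAD2 at 0 reads, and all 4 lymphoid genes stayed under 1 CPM.

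NTS reads were also found in the plastic control libraries of every line. All 8 plastic control libraries had between 26 and 71 NTS reads, or 0.718 to 1.71 CPM, while the other libraries of RWPE, LNCaP and MDAPCa2a did not exceed 0.162 CPM. Of the 26 libraries of other groups 15 had 0 NTS reads. FGG, a fibrinogen chain made in liver, was at 1.41 to 2.84 CPM in the same 8 libraries and at 0 reads in 25 of the 26 others. The sum of the 8 liver genes was 12.7 to 18.6 CPM in LNCaP plastic control against 0.898 to 1.93 CPM in its other groups, and 14.3 to 15.1 CPM in RWPE plastic control against 0 to 0.587 CPM. The lower NTS of stripped or ACP groups in these lines therefore goes with lower liver transcripts, whose part in it was not tested. On plastic in stripped medium NTS had 0 reads in LNCaP and in MDAPCa2a, and 150 in VCaP. On ACP in control medium it had 0 reads in RWPE, 1 in LNCaP and 67 in VCaP. The time label of the plastic control libraries and their combination of surface with medium cannot be told apart.

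**Figure D4:**
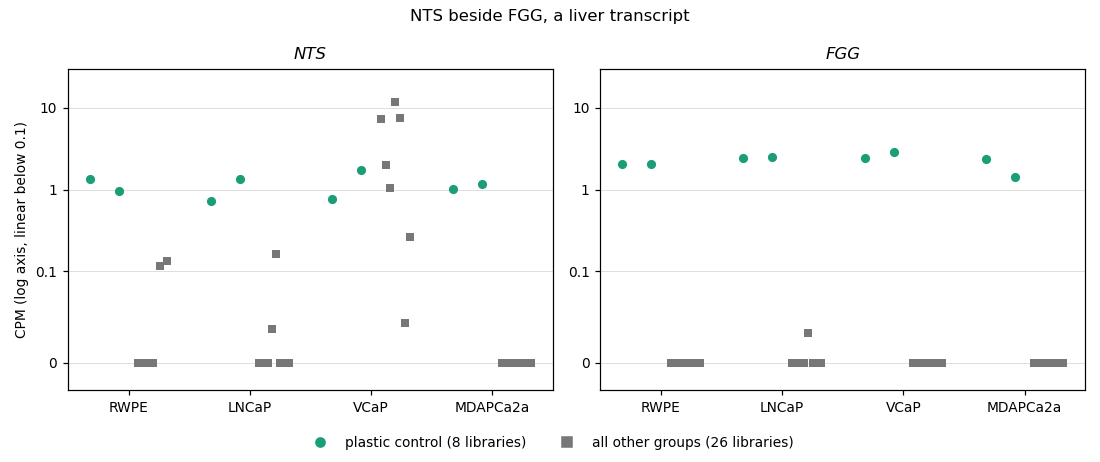
NTS and the liver transcript FGG in 34 libraries by line (CPM, logarithmic axis and linear below 0.1), with circles for plastic control and squares for the other groups. In each line the plastic control libraries hold 0.718 to 1.71 CPM of NTS and 1.41 to 2.84 CPM of FGG, and outside them NTS exceeds 0.162 CPM in VCaP libraries alone.

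The surface was compared within a medium. In stripped medium, ACP against plastic, LNCaP gave 1 higher member of 5, CHGA, where 6.12% of genes were called (4.32% as higher). CHGA, near the detection limit in LNCaP, had 18 reads against 0 (at least 5.91-fold, adjusted p = 0.0494). The call was lost without each of the 4 libraries. ERG was at 0.0647 to 0.280 CPM on ACP and 0.0510 to 0.0513 CPM on plastic, and its part in this difference was not tested. The 5 members include NTS, with 5 reads against 0. The interaction of surface and serum in LNCaP gave 0 of 5 by edgeR (0.307% of genes called), with 3 at an unadjusted p below 0.05 (CHGA, SCG3, NTS) and 0 by DESeq2. That unadjusted p was reached by 1276 of all 14656 genes tested. In VCaP edgeR called 0 of 9 members and 0% of genes, with 0 members at an unadjusted p below 0.05 and 0 by DESeq2. In MDAPCa2a ENO2 read 4.58 and 7.72 CPM on ACP and 3.12 and 1.53 CPM on plastic, with no overlap (1.48 ± 0.37, adjusted p = 0.207). There edgeR called 0 of 4 members (0.00734% of genes called), with ENO2 at an unadjusted p below 0.05 and called by DESeq2. That unadjusted p was reached by 2071 of all 13626 genes tested. The 4 members include NTS, which had 0 reads in these groups and could not be called.

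In control medium, RWPE on ACP against plastic gave 2 lower members of 6, with 4.16% of genes called (1.33% as lower). CHGB read 1.75 and 0.936 CPM on plastic and 0.136 and 0.341 CPM on ACP (-2.51 ± 0.60, adjusted p = 0.0472), and NTS had 89 reads against 0, at least 19.2-fold lower (adjusted p = 0.0149). The islet sum in RWPE was 1.31 to 2.23 CPM on plastic and 0 to 0.146 CPM on ACP, and the brain sum 38.2 to 42.7 CPM against 24.8 to 27.2 CPM, whose part in the CHGB difference was not tested. The CHGB call was lost without each of the 4 libraries, and that of NTS without plastic control replicate 1 and without either ACP control library. LNCaP gave 1 lower member of 5, NTS, with 95 reads against 1 (56.8-fold, exact 95% counting interval 9.94 to 2265, adjusted p = 0.024) and 12.6% of genes called (5.85% as lower). That call was lost without either plastic control library and without ACP control replicate 1. In both lines NTS passed the count filter through its plastic control reads alone, so it could be called only as lower here. The number of all genes called ran from 4 to 106 in RWPE (595 with all libraries) and from 0 to 2385 in LNCaP (1845) without single libraries. In VCaP edgeR called 0 of 9 (0.0448% of genes called), with 0 at an unadjusted p below 0.05 and 0 by DESeq2. In these comparisons surface and the continuous culture label change together.

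PCSK1 rose in RWPE with androgen medium on ACP, the 1 called member of 6 tested, with 19.1% of all genes called (11% as higher). It read 1.60 and 1.41 CPM in ACP control, 0.849 and 1.42 CPM in plastic control, and 17.5, 3.58 and 15.4 CPM in ACP androgen. Every androgen library stood above every control library, with replicate 2 well below the other two. The change was 3.02 ± 0.59 (adjusted p = 0.017), it ranged from 2.67 to 3.45 without single libraries, and it did not pass without either ACP control library. The number of all genes called was 2730, 0 without either ACP control library and 6102 without androgen replicate 3. The sum of the basal genes was 12537 to 15698 CPM in ACP control and 3349 to 10954 CPM in ACP androgen, and that of the fibroblast genes 26.8 to 31.6 CPM against 14.9 to 21.0 CPM. Their part in the PCSK1 result was not tested. ENO2 gave -0.39 ± 0.20 (adjusted p = 0.191), and CHGA, CHGB and SYP did not pass. Nor did NTS, with 5 reads in ACP androgen and 0 in ACP control. Androgen medium is described with stripped serum and the usual RWPE medium is serum-free, so hormone and serum cannot be told apart in this line.

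**Figure D5:**
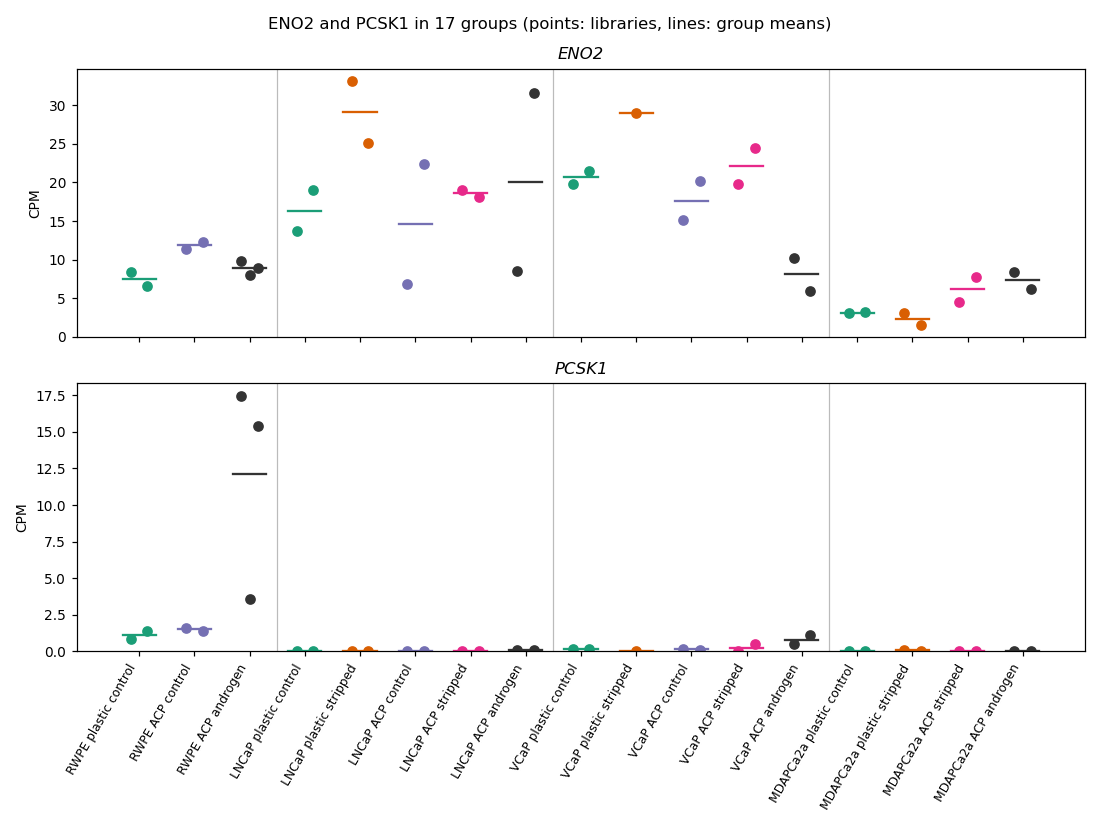
ENO2 and PCSK1 in the 17 groups (CPM, linear axes from 0), with points for libraries and lines for group means. ENO2 is lowest in MDAPCa2a and, within VCaP, in the androgen group, and PCSK1 reaches 3.58 to 17.5 CPM in RWPE with androgen medium and stays at or below 1.60 CPM elsewhere.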

How the data were processed

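The values used are whole read counts per gene symbol, not normalized, deposited by the authors as a table of 26336 genes by 34 libraries, of which 4335 genes had 0 reads in every library. Per the submitters' processing notes, STAR, HTSeq and hg19 were named, with no version or role. Which annotation was counted, and whether by strand, is not given in the sources used here. Reads of SYP and SYP-AS1 thus cannot be told apart over the 68 exon bases they share, 1.30% of the SYP exons. The same holds for ENO1 and ENO1-AS1 over 126 bases. Per the labels' protocols, libraries were made by a service provider with poly(A) selection. Columns were matched to samples by name, and none was left unmatched.

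Genes were tested with edgeR 4.0.16 in R 4.3.3 (quasi-likelihood F test after TMM scaling, on genes kept by filterByExpr at its minimum of 10 reads, with Benjamini-Hochberg adjusted p below 0.05). Within a line, only its own groups were fitted together, leaving 4 or 5 residual degrees of freedom. Across lines, the 34 libraries were fitted jointly, leaving 17. The biological coefficient of variation common to all genes came to 24.9% in VCaP and 16.8% to 18.6% in the other lines. Each SE was obtained from a log2 fold change and its F value (fold change over root F). A group with 0 reads was set to 3 counts over the group for a lower bound, and ratios with 1 to 3 counts have an exact 95% interval from counting error only. Per kilobase values use GENCODE exon unions.

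Alternatives were DESeq2 1.42.0, RLE size factors, no count filter, a replicate block, a fit of other groups and leaving out each library. The steps were tested on simulated data, and tables were made with Python 3.11.15, pandas 2.3.3 and scipy 1.17.1. Named were all members, KLK3, TMPRSS2 and FKBP5, the largest rise and fall of each list in a comparison, and the 3 genes most like each member with a group mean of at least 5 CPM. One gene of the lists is counted but not reported here. The members and lists were chosen with earlier results of these data known.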

Additional observations from a re-analysis of the deposited data

Results flagged for a closer look

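For genes of the lists and the androgen checks, the effect of androgen loss on ACP (stripped minus androgen, log2) differed between lines by the test of the difference itself in edgeR's fit of all 34 libraries. None of the 9 neuroendocrine markers was among them by that test, which could not call NTS where MDAPCa2a was compared. Between VCaP and LNCaP, the effect in VCaP was higher by 2.00 for ONECUT2 (SE 0.51), by 1.61 for VAMP2 (SE 0.26) and by 1.32 for STX1A (SE 0.40). It was lower for ENO1 (-0.89), for KLK3 (-3.75) and for FKBP5 (-1.36). ONECUT2 read 68.3 and 30.7 CPM without androgen and 22.6 and 25.1 CPM with it in VCaP, against 5.47 and 6.34 CPM without and 12.5 and 10.3 CPM with it in LNCaP, which is opposite in direction.

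Between VCaP and MDAPCa2a, the effect in VCaP was higher by 2.61 for PEG10 (SE 0.65), by 1.69 for STX1A (SE 0.42) and by 1.18 for VAMP2 (SE 0.26). It was lower for ENO1 (-0.92), KLK3 (-5.19), TMPRSS2 (-3.21) and FKBP5 (-3.41). STX1A and VAMP2 are parts of the membrane fusion complex, and STX1A was named after its values were seen. Of the 8 libraries left out in turn, the difference from LNCaP was lost without 8 for ENO1, 5 for STX1A, 4 for FKBP5 and 2 for ONECUT2, and without none for KLK3 and VAMP2. The difference from MDAPCa2a was lost without 6 for ENO1, 3 for PEG10, 3 for STX1A and 1 for VAMP2, and without none for KLK3, TMPRSS2 and FKBP5.

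Of the 20 androgen-induced genes, 2 were called higher and 2 lower (KLK3 and FKBP5, above) in VCaP minus LNCaP, 0 higher and 10 lower in VCaP minus MDAPCa2a, and 9 higher and 0 lower in MDAPCa2a minus LNCaP. The 2 higher in VCaP minus LNCaP were PMEPA1 (1.74) and ELL2 (1.56), named after their values were seen, and lost without 4 and 6 of the 8 libraries. ELL2 was lower in VCaP minus MDAPCa2a (-1.91, lost without 4). In MDAPCa2a minus LNCaP the effect was higher for PMEPA1 (2.64), ELL2 (3.47), FKBP5 (2.05, lost without 3) and TMPRSS2 (2.59, lost without 6). The interaction of surface and serum in LNCaP called 5 of these 20 genes as higher, among them KLK3 (3.70), which passed without each library left out in turn.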

How the results depend on the processing

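With RLE size factors 26 of 26 counts of members called stayed within 1.5 times, and 139 of 141 gene values kept their direction and side of the threshold. The gene values that did so were 132 of 141 with DESeq2, 126 of 141 with no count filter, 65 of 79 in a fit of all lines, 40 of 53 in a fit of the compared groups only, and 488 of 670 without 1 library. The cause of the changes below was not tested. VCaP plastic stripped is 1 library and could not be left out. Where 3 reads or fewer stood in a group, depth limits the values: this held in some groups outside VCaP for CHGA, CHGB, SCG2, SCG3, NTS, INSM1 and PCSK1, and for PCSK1 in VCaP plastic stripped.

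The labels give groups the same replicate numbers, but nothing ties a number to a shared culture or day, and the correlation of replicate differences between groups was -0.34 to 0.44. With the replicate block 136 of 141 gene values stayed, MDAPCa2a plastic stripped minus control went from 1 called member to 0, and ENO2 in LNCaP ACP stripped minus androgen turned to 0.12.

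Counts of members called moved as follows. VCaP ACP stripped minus control went to 4 with no filter (CHGA, CHGB, SCG2, NTS), 2 with DESeq2 (CHGB, NTS) and 3 in a fit of all lines (CHGA, CHGB, NTS). VCaP plastic stripped minus control went to 2 with no filter, 2 with DESeq2 and 2 in a fit of all lines. LNCaP plastic stripped minus control went to 1 with DESeq2 and 1 in a fit of all lines. The mean over 3 lines went to 1 with DESeq2. VCaP minus LNCaP went to 1 with no filter (ENO2) and 1 with DESeq2, and VCaP minus MDAPCa2a to 2 with no filter (CHGA, ENO2) and 1 with DESeq2. The LNCaP interaction of surface and serum went to 1 with no filter (NTS), LNCaP stripped ACP minus plastic to 0 in a fit of all lines, MDAPCa2a stripped ACP minus plastic to 1 with no filter and 1 with DESeq2 (ENO2), and LNCaP control ACP minus plastic to 0 with DESeq2. In a fit of the compared groups only, LNCaP minus RWPE went to 3, MDAPCa2a minus RWPE to 2 and MDAPCa2a minus LNCaP to 2.

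Without single libraries the counts ran from 2 to 5 for VCaP ACP stripped minus androgen, 0 to 1 for LNCaP plastic stripped minus control, 0 to 0 for MDAPCa2a plastic stripped minus control and for LNCaP stripped ACP minus plastic, 0 to 1 for the mean over 3 lines, VCaP minus LNCaP, VCaP minus MDAPCa2a, RWPE control ACP minus plastic, LNCaP control ACP minus plastic and RWPE ACP androgen minus control, 3 to 6 for LNCaP minus RWPE, and 2 to 4 for MDAPCa2a minus LNCaP. Directions turned within these ranges: ENO2 from -0.066 to 1.81 in LNCaP minus RWPE, -0.73 to 1.11 in LNCaP ACP stripped minus androgen, -0.28 to 1.41 in LNCaP ACP stripped minus control, -0.61 to 0.074 in MDAPCa2a ACP stripped minus androgen and -0.97 to 0.010 in MDAPCa2a plastic stripped minus control; SYP from -0.30 to 0.081 in LNCaP plastic and from -0.093 to 0.17 in VCaP plastic stripped minus control; SCG2 from -0.22 to 1.80 in VCaP ACP stripped minus androgen; INSM1 from -0.28 to 0.67 and SCG3 from -0.083 to 0.41 in VCaP ACP stripped minus control; and CHGA from -0.41 to 2.20 in VCaP minus LNCaP. With no filter, SYP in VCaP plastic stripped minus control was -0.00149.

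The number of all genes called, against which the members were read, also moved by over 1.5 times. VCaP ACP stripped minus androgen called 2727, and 4543 in a fit of all lines. VCaP ACP stripped minus control called 128, against 927 with no filter, 812 with DESeq2, 340 with the block and 1057 in a fit of all lines, and VCaP plastic stripped minus control 139, against 25 with RLE, 1231, 1118, 3 and 1561 with no filter, DESeq2, the block and a fit of all lines. LNCaP ACP stripped minus androgen called 1133, against 2028 with no filter, 1759 with DESeq2 and 739 in a fit of all lines, LNCaP ACP stripped minus control 787 against 1732 with no filter and 1331 with DESeq2, and LNCaP plastic 1385 against 2193 with no filter. MDAPCa2a ACP called 0, against 9, 3 and 1 with no filter, DESeq2 and a fit of all lines, and MDAPCa2a plastic 215, against 855, 616 and 393. In a fit of the compared groups only, the mean went from 1570 to 807, VCaP minus LNCaP from 1887 to 938, VCaP minus MDAPCa2a from 1362 to 308 and MDAPCa2a minus LNCaP from 194 to 56 (493 with no filter, 413 with DESeq2). With no filter, DESeq2 and a fit of all lines, the LNCaP interaction went from 45 to 338, 204 and 73, LNCaP stripped ACP minus plastic from 897 to 1827, 1739 and 342, MDAPCa2a stripped ACP minus plastic from 1 to 320, 208 and 27, and VCaP control ACP minus plastic from 7 to 72, 40 and 64. RWPE control ACP minus plastic went from 595 to 1226 with no filter, 1401 with DESeq2 and 2661 with the block, LNCaP control ACP minus plastic from 1845 to 2933 with no filter and 647 in a fit of all lines, VCaP stripped ACP minus plastic from 0 to 1 with no filter and 3 with DESeq2, and RWPE ACP androgen minus control from 2730 to 5741 with the block. Without single libraries the number ran from 191 to 771 for LNCaP ACP stripped minus control, 310 to 1444 for LNCaP plastic, 90 to 220 for VCaP plastic and 0 to 3 for MDAPCa2a ACP. It was 906 to 1925 for the mean, 1013 to 2021 for VCaP minus LNCaP, 77 to 598 for MDAPCa2a minus LNCaP, 646 to 1685 for VCaP minus MDAPCa2a and 11 to 148 for the LNCaP interaction. ACP minus plastic ran from 66 to 1278 (LNCaP) and 0 to 306 (MDAPCa2a) in stripped medium and 1 to 19 (VCaP) in control medium.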

Other observations

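Genes whose pattern was most like that of a member are named by the Pearson r of group mean log2 CPM over the 17 groups, among 13217 genes with a group mean of at least 5 CPM. The points share cell line, library preparation and depth, and for 6 of the members most of the pattern is the gap between VCaP and the other lines, so r is high for many genes and is given as a description. CHGA was most like ADCY2 (0.985), CTNND2 (0.985) and CHRNB2 (0.985). CHGB was most like SEMA3E (0.990), FCGRT (0.990) and GREM1 (0.989), and SCG2 most like RIMBP2 (0.987), LYL1 (0.985) and SLC38A11 (0.985). SCG3 was most like KCNQ3 (0.989), PAX5 (0.988) and CHRNB2 (0.986). SYP was most like TOP2B (0.992), SNCB (0.986) and CRISP3 (0.982), and INSM1 most like PHF21B (0.986), NLK (0.986) and IHH (0.984).

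The members outside that pattern had other neighbours. ENO2 was most like CHST10 (0.954), ROR2 (0.919) and BACE1 (0.912). NTS was most like ADH1B (0.951), ZNF548 (0.876) and ALB (0.870), of which ADH1B and ALB are known as liver genes. PCSK1 was most like RAE1 (0.942), EVA1C (0.934) and IRAK3 (0.931).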
